A study of Rattus norvegicus with 16 samples.

Results

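The miR-378 hairpin gives 2 mature microRNAs (miRNAs), short RNAs that pair with messenger RNAs and lower their output. Both were followed here in the hearts of newborn rats. The members were the array rows whose name equals rno-miR-378 or rno-miR-378*, 2 of the 677 rat miRNAs on the array, read by 4 of its 1644 probes. They were chosen by an earlier look at these same arrays, because both were higher in the enlarged-heart strain. The strain difference of each arm, and everything built from it, is therefore given as a description with no test. Both rows were detected on all 16 arrays, and both passed the filter that kept 233 miRNAs detected on at least 4 arrays.

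Total RNA from the heart of each pup, 100 ng, was labelled with Cy3 and read on its own array, with no pooling. Hypertrophic Heart Rats (HHR) are a strain selectively bred for large hearts, and Normal Heart Rats (NHR) are their control strain. Each strain was represented by 4 female and 4 male pups, all 2 days old, untreated and with no allele or transgene named in the labels. The labels disagree on the tissue: the whole heart is named in some, while the design text has the atria removed. The question put to the arrays was which miRNAs differ in hearts of this strain near birth.

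The hairpin lies inside Ppargc1b, the gene for PGC-1 beta, a coactivator of genes for mitochondria and fatty acid oxidation. A miRNA inside a gene can be cut from its host's transcript. The hairpin is cleaved to a short duplex, and either strand of that duplex can be loaded into an Argonaute protein. In heart muscle cells miR-378 has been reported to restrain hypertrophic growth, and in mice without the hairpin the energy metabolism of liver and muscle changes. No messenger RNA was measured on these arrays, so no value for Ppargc1b goes with the values below.

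Both mature sequences are shown because they separate the arms as distinct RNAs with distinct seeds. They were taken from RefSeq annotation on GRCr8, where the arms carry the current names rno-miR-378a-3p and rno-miR-378a-5p and lie on the minus strand, the strand of Ppargc1b. Both members were assigned to these entries by the older naming of the arms, not by probe sequence. The sequences run 5′ to 3′, and capitals mark the seed, bases 2 to 8, which leads pairing with targets.
rno-miR-378: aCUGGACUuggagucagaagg
rno-miR-378*: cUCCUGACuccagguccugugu

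The arms are 21 and 22 bases long, with 16 bases between them in a 65-base hairpin entry. The longest stretch of perfect pairing between them was 9 bases, CUGACUCCA at positions 4 to 12 of rno-miR-378* with UGGAGUCAG at positions 9 to 17 of rno-miR-378. Most of the seed of rno-miR-378* lies in this paired stretch. Among the 724 mature rat entries of the table, each seed was held by its own arm alone, so neither arm shared its seed with another listed rat miRNA. G and C made up 52.4% of rno-miR-378 and 59.1% of rno-miR-378*.

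Signals were background-subtracted intensities, scaled to give each array the same 75th percentile, taken over 258 probes that stood clear of background on every array. Between 200 and 239 miRNAs were detected per array, and no spot was saturated. Before scaling, this percentile ran from 418 to 525 on the HHR arrays and from 295 to 503 on the NHR arrays. Only 3 NHR arrays (female 3, male 2 and male 4) exceeded 400. The other 5, at 295 to 327, were dimmer than every HHR array. Each of the 2 slides held 2 arrays of every group. Relative to this scaling, the median strain difference of the 233 tested miRNAs was -0.11 on the log2 scale.

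rno-miR-378, the 3p arm and the one named as the main product on the array, was higher in HHR hearts. The scaled log2 signal of HHR females 1 to 4 was 9.36, 9.20, 9.27 and 9.33. That of HHR males 1 to 4 was 9.38, 9.39, 9.28 and 9.26. NHR females 1 to 4 read 8.99, 8.86, 8.81 and 8.90. NHR males 1 to 4 read 8.94, 8.89, 8.90 and 8.89. Every HHR array lay above every NHR array, and 0.21 log2 units separated the lowest HHR array, female 2, from the highest NHR array, female 1. On the linear scale the signal ran from 589 to 672 in HHR, with a median of 631, and from 448 to 510 in NHR, with a median of 477. The HHR mean was 9.31 ± 0.068 and the NHR mean 8.90 ± 0.054 (SD, n = 8 each). The difference was 0.41 ± 0.032 (SE), or 1.33-fold.

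rno-miR-378*, the 5p arm and the star strand in the older naming, showed nearly the same difference. HHR females 1 to 4 had scaled log2 signals of 6.43, 6.25, 6.37 and 6.44. HHR males 1 to 4 had 6.35, 6.38, 6.33 and 6.28. NHR females 1 to 4 had 6.03, 5.94, 5.90 and 6.05. NHR males 1 to 4 had 6.04, 5.87, 6.03 and 5.97. The strains again did not overlap, with 0.20 between HHR female 2 and NHR female 4. On the linear scale the range was 76.1 to 86.7 in HHR, around a median of 82.1, and 58.6 to 66.5 in NHR, around a median of 64.0. The means ± SD over 8 arrays were 6.35 ± 0.067 for HHR and 5.98 ± 0.069 for NHR, a difference of 0.37 ± 0.036 (SE), or 1.30-fold.

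**Figure D1:**
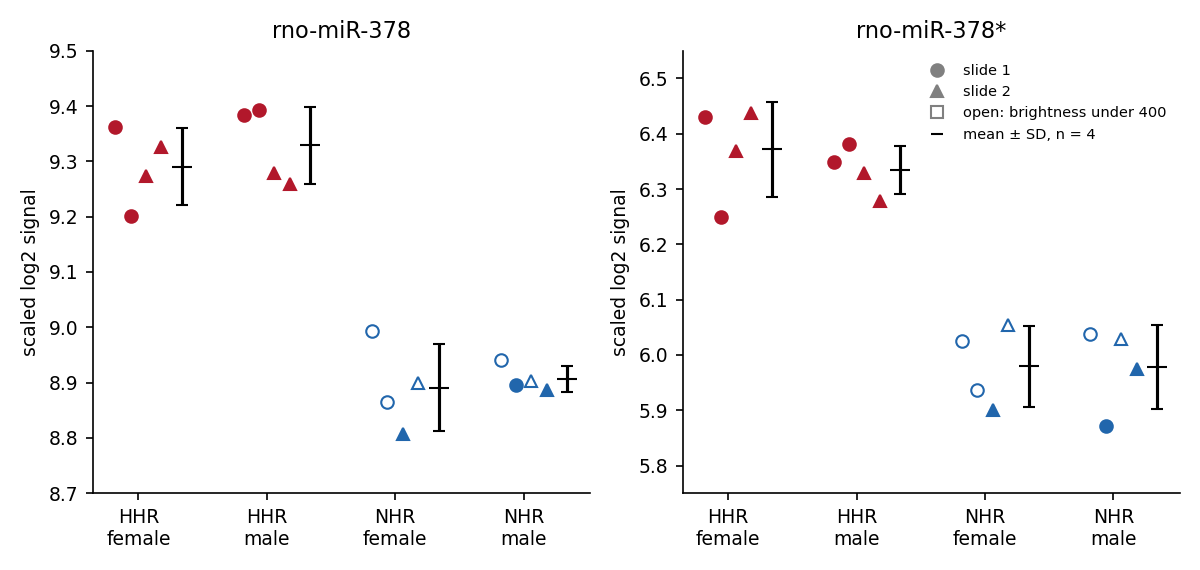
Scaled log2 signal of rno-miR-378 (left) and rno-miR-378* (right) on each of the 16 arrays, by strain and sex; circles are slide 1, triangles slide 2, open symbols arrays with a 75th percentile under 400 before scaling, bars mean ± SD of 4 animals. Every HHR array lies above every NHR array in both panels, by at least 0.21 and 0.20; the vertical axes do not start at 0.

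HHR exceeded NHR by similar amounts in both sexes and on both slides. For rno-miR-378 the difference was 0.40 in females and 0.42 in males, and 0.41 on each slide. For rno-miR-378* it was 0.39 in females, 0.36 in males, 0.38 on slide 1 and 0.36 on slide 2. Array brightness differed between the strains, so both arms were also compared over arrays above 400 alone, 8 HHR against 3 NHR: the difference was 0.45 for rno-miR-378 and 0.44 for rno-miR-378*. Against the 5 dim NHR arrays it was 0.39 and 0.34. Within NHR, rno-miR-378 averaged 8.86 on the 3 brighter arrays and 8.92 on the 5 dimmer ones, and rno-miR-378* averaged 5.92 and 6.02, so the dimmer NHR arrays were the ones nearer to HHR.

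The place of both arms among all miRNAs follows from how they were picked and is given as a description. Of the 233 tested, 21 were called higher in HHR (limma, adjusted p under 0.05), 9.01%, both arms among them, and 106, 45.5%, were called lower. All HHR arrays lay above all NHR arrays for 7 of 233, 3%, again including both arms, and below for 26. By size of the strain difference rno-miR-378 ranked 4th from the top and rno-miR-378* ranked 8th. Less tied to that choice was the spread between animals of a group, an SD of 0.064 for rno-miR-378 and 0.072 for rno-miR-378*, against a median of 0.12 over the 233. These were the 70th and 78th smallest, a rank that takes no account of signal, and many dim miRNAs had larger SDs. Most miRNAs of similar signal varied less than the arms. Examples were rno-miR-26a (0.052) for rno-miR-378 and rno-miR-345-5p (0.058) for rno-miR-378*. Some varied more, such as rno-miR-199a-3p (0.13). The arms were thus not shown to be quiet for their signal.

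**Figure D2:**
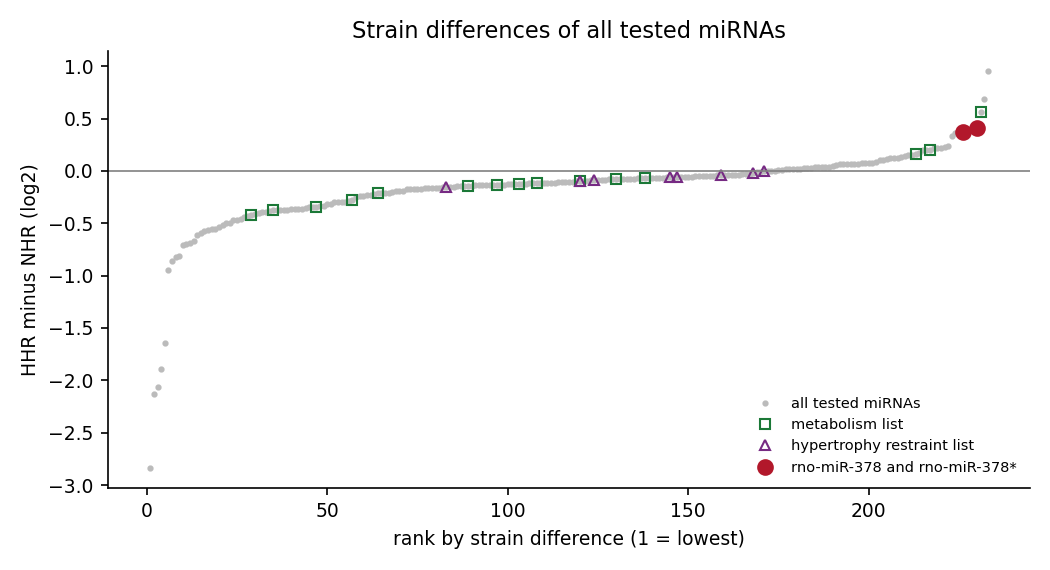
Strain difference (HHR minus NHR, scaled log2 signal) of the 233 tested miRNAs, ordered from lowest to highest; red circles are rno-miR-378 (0.41) and rno-miR-378* (0.37), green squares miRNAs of a list tied to metabolism and purple triangles miRNAs of a list tied to restraint of hypertrophy. Both arms sit near the upper end. Most of both lists lie below 0, as do most of all 233 (median -0.11).

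Each arm was read by 2 probes with 10 spots each, and all 4 probes gave nearly the same strain difference. The probes of rno-miR-378, A_26_P00001732 and A_26_P00001733, gave 0.42 ± 0.031 and 0.41 ± 0.033 (SE). Those of rno-miR-378*, A_26_P00002164 and A_26_P00002165, gave 0.39 ± 0.042 and 0.37 ± 0.034. The probes of an arm read the same RNA on the same array, so they are repeat readings and not replicates. For each of the 4 probes the lowest HHR array stood above the highest NHR array, by 0.23, 0.20, 0.15 and 0.22 in the order named. All 4 were well above background on all 16 arrays.

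The probes of an arm differed from each other by a similar amount in both strains. A_26_P00001733 was brighter than A_26_P00001732 by 0.72 ± 0.011 on the HHR arrays and 0.73 ± 0.023 on the NHR arrays (log2, mean ± SD of 8). A_26_P00002165 was brighter than A_26_P00002164 by 0.81 ± 0.038 in HHR and 0.83 ± 0.041 in NHR. For rno-miR-378 the SD of the offset was smaller than that of either probe's level (0.049 to 0.069), and for rno-miR-378* it came nearer to that of the levels (0.057 to 0.086). Spots of the dimmer arm scattered more: the median coefficient of variation over the spots of an array was 2.41% and 1.97% for the probes of rno-miR-378, and 6.31% and 5.004% for those of rno-miR-378*. The scanner software marked 4, 6, 5 and 4 of the 160 spots of each probe as outliers, and these were left out.

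**Figure D3:**
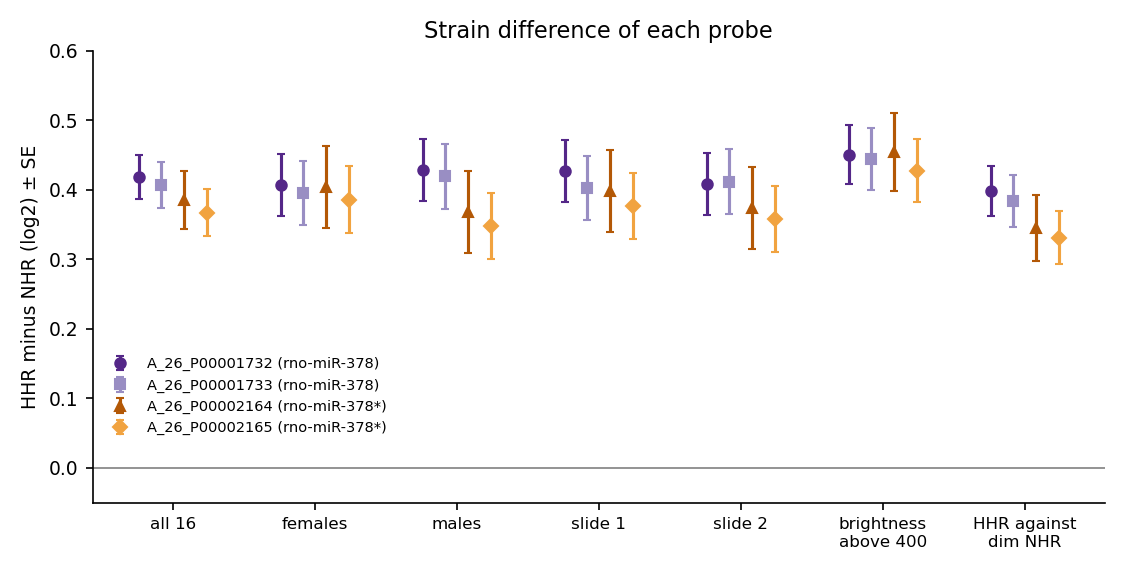
Strain difference (HHR minus NHR, log2) of the 4 probes over all 16 arrays and over subsets by sex, slide and array brightness; points are differences of means and bars ± SE from the spread within groups. All 4 probes lie between 0.33 and 0.46 in every subset; the subsets share arrays and are not independent.

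The ratio of the arms on an array, log2 rno-miR-378 minus log2 rno-miR-378*, is free of any scaling by a single factor per array. Its size reflects how well each probe binds as well as how much RNA was present, so only its differences between arrays are read here. HHR females 1 to 4 had ratios of 2.93, 2.95, 2.90 and 2.89, and HHR males 1 to 4 had 3.04, 3.01, 2.95 and 2.98. NHR females 1 to 4 had 2.97, 2.93, 2.91 and 2.84, and NHR males 1 to 4 had 2.90, 3.02, 2.87 and 2.91. The strains overlapped over most of their range. The mean ± SD over 8 arrays was 2.96 ± 0.051 for HHR and 2.92 ± 0.055 for NHR, so the strains differed by 0.037, less than either SD. This difference was -0.014 with quantile normalization, which is not a single factor per array. It was 0.28 with a model-based background and an offset of 50, and 0.31 in the authors' value table, whose processing is not stated.

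Sex was not used to choose the members, so it could be tested for the ratio. Males exceeded females by 0.076 in HHR and by 0.016 in NHR, 0.046 on average. This did not pass a two-sided exact permutation test of the sex labels within strain (p = 0.0829, 4900 relabellings, n = 4 per group). In HHR 3 of the 4 males lay above every female, while in NHR the sexes overlapped. With the slide as a block the exact permutation p was 0.0355. Leaving out NHR female 1 gave a difference of 0.056 (exact p = 0.0380) and leaving out NHR male 3 gave 0.055 (exact p = 0.0424), so the side of the threshold rests on these choices.

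**Figure D4:**
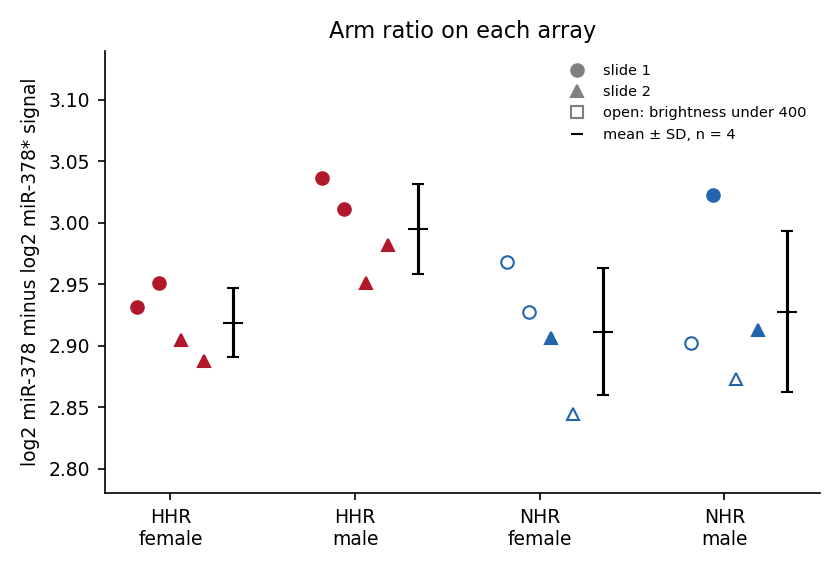
Arm ratio (log2 rno-miR-378 minus log2 rno-miR-378* signal) on each of the 16 arrays by strain and sex; symbols as in the plot of levels, bars mean ± SD of 4 animals. The strains overlap, with means of 2.96 in HHR and 2.92 in NHR; the HHR males have the highest group mean, 2.99; the vertical axis does not start at 0.

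Neither arm was called different between the sexes. Males minus females was 0.027 ± 0.034 for rno-miR-378 (SE; limma adjusted p = 0.970; 95% interval -0.045 to 0.099) and -0.019 ± 0.037 for rno-miR-378* (limma adjusted p = 0.970; interval -0.098 to 0.060). The intervals allow a sex difference of up to 1.07-fold and 1.04-fold higher, or 0.969-fold and 0.934-fold lower. No miRNA of the 233 was called for sex by limma, 0%, and 23 had an unadjusted p under 0.05; without NHR male 1 the calls rose to 10, and neither arm was among those past the threshold in any run that left out an array.

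The strain difference itself was tested between the sexes through the interaction term. For rno-miR-378 it was larger in males by 0.023 ± 0.067 (SE; limma adjusted p = 0.954; 95% interval -0.12 to 0.17). For rno-miR-378* the interaction was -0.037 ± 0.073 (limma adjusted p = 0.954; interval -0.19 to 0.12). No difference between the sexes was detected, though an interaction of up to 0.19 in size stays within the interval of rno-miR-378*. limma called 0 of 233 miRNAs for this term, 0%, with 9 at an unadjusted p under 0.05.

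Within each strain the arms tended to move together from animal to animal. Over the 8 HHR arrays Pearson's r was 0.71 (exact permutation p = 0.0499) and Spearman's rho 0.67 (exact permutation p = 0.0831). Over the 8 NHR arrays r was 0.62 (exact permutation p = 0.0992) and rho 0.64 (exact permutation p = 0.0962). All 4 had a Benjamini-Hochberg adjusted value of 0.0992 over this family of 4, so none passed. Leaving out the 2 arrays farthest from the median of rno-miR-378 gave r = 0.55 in HHR and 0.52 in NHR. Both arms on an array share its scaling and its RNA. Slide by slide there were 4 arrays per strain, too few for a correlation. Array brightness moved with both arms in NHR (r = -0.57 for rno-miR-378 and -0.83 for rno-miR-378*, 8 arrays) and less in HHR (r = -0.13 and 0.090); its part in the correlation of the arms was not tested.

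The miRNAs whose levels followed each arm most closely were ranked by the mean of the r within HHR and the r within NHR, 8 arrays each, over the other 232 tested miRNAs. For rno-miR-378 the first was rno-miR-484, at 0.74, reported to act on mitochondrial fission in heart muscle, and its own partner arm was the next, at 0.67. rno-miR-129-1* (0.65), rno-miR-582 (0.64) and rno-miR-30d* (0.63) followed. For rno-miR-378* the first were rno-miR-133a and rno-miR-133b, both at 0.71 and both abundant miRNAs of heart and skeletal muscle. They were followed by rno-miR-652 and rno-miR-30b-3p, both at 0.70, and rno-miR-345-5p at 0.68; rno-miR-378 came 6th. The values within a list lie close together, and all arrays share the scaling, so the order is a description only. Their strain differences on this scaling were all below 0, leaving out the miR-378 arms, and ran from -0.35 for rno-miR-129-1* to -0.041 for rno-miR-30d*. Most of all tested miRNAs also lay below 0 on this scaling, with a median of -0.11, so this direction does not set the listed miRNAs apart.

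The array held 36 hairpins with both arms among the tested miRNAs. The miR-378 pair was the only pair of the 36 with every HHR array above every NHR array for both arms, which is part of how it was chosen, and 3 pairs were wholly below for both. Apart from miR-378, both arms were called higher (limma) in 2 pairs, miR-490 and miR-542. The arms of miR-490 differed between strains by 0.14 and 0.22, and those of miR-542 by 0.070 for the 3p and 0.11 for the 5p arm. In 8 pairs the arms moved in opposite directions. The median size of the strain difference in arm ratio was 0.13, against 0.037 for miR-378, the 6th smallest of the 36. Some other pairs held an arm detected on few arrays. The largest differences, 2.42 and 1.35, were in pairs with rno-miR-3584-5p (8 arrays) and rno-miR-328a* (4 arrays). The miR-378 pair was also chosen for both arms being higher, so its rank is a description only.

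A list of 19 other miRNAs tied to energy metabolism was read beside the miR-378 arms, 15 of them tested. On the scaling used here 2 were called higher in HHR and 9 lower (limma), with a median difference of -0.12, against 21 higher (9.01%), 106 lower (45.5%) and a median of -0.11 over all 233. The list thus lay close to all tested miRNAs in its median and in the split between higher and lower calls. The higher ones were rno-miR-338, at 0.57 ± 0.099 (SE; limma adjusted p = 0.000481), reported to lower the mitochondrial subunit COX4 in neurons, and rno-miR-199a-5p. The lower ones included rno-miR-210, a hypoxia-induced miRNA that represses iron-sulphur cluster assembly, at -0.42 ± 0.062 (limma adjusted p = 0.000128). rno-miR-195, of the miR-15 family, stood at -0.34 ± 0.042, and rno-miR-499, encoded in the cardiac myosin gene Myh7b, at -0.28 ± 0.027. rno-miR-210 and rno-miR-195 lost their calls with the percentile over all probes, no scaling, spike-in scaling and the authors' value table, where rno-miR-210 shrank to as little as -0.077 and rno-miR-195 to -0.0031. rno-miR-338 read 1.55 with the total gene signal, 0.19 with no call (limma adjusted p = 0.0956) with a model-based background and no offset, and -0.12 with the offset of 50, and rno-miR-499 turned to 0.00046, 0.060 and 0.030 with the percentile over all probes, no scaling and the authors' value table. Scaling by the percentile over all probes turned the list's count to 10 higher and 0 lower, with a median of 0.16. Under that scaling 134 of all 233 were called higher, with a median of 0.17 over the 233.

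A second list held 10 other names reported to restrain hypertrophy, 8 of them tested. None was called higher and 2 were called lower (limma), with a median difference of -0.060, against 9.01% higher, 45.5% lower and -0.11 over all 233. These were rno-miR-133b at -0.15 ± 0.031 (SE; limma adjusted p = 0.00132) and rno-miR-26a at -0.087 ± 0.029 (limma adjusted p = 0.0215). Both directions turned with the scaling. With the percentile over all probes all 8 tested members were called higher, as were 134 of all 233. The median of the 233 was then 0.17. Both arms of miR-378 were higher in HHR under every one of these ways of computing levels.

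Markers of cell types were read on the same arrays, since in bulk tissue fewer cells of a type and less RNA per cell cannot be told apart. Of 6 heart muscle markers 5 were detected on all arrays and rno-miR-208 on none. The star arm rno-miR-208*, not on the list, was detected on all 16. The summed signal of the listed markers ran from 11497 to 12943 in HHR and from 12253 to 13885 in NHR. Fat is of interest because miR-378 acts in brown fat: all 3 brown fat markers were detected on every array, with sums of 94.0 to 102.7 in HHR and 100.3 to 122.7 in NHR, and 100.4 to 118.0 against 92.3 to 105.1 with the percentile over all probes. rno-miR-193 and rno-miR-365 were called lower in HHR (limma), at -0.21 and -0.24, as were 45.5% of all 233 tested miRNAs. These 2 markers turned positive with that percentile, with no scaling, with spike-in scaling and in the authors' value table. The sum of the endothelial markers (2 of 2 detected) was 964 to 1077 in HHR and 1157 to 1272 in NHR. The smooth muscle sum (2 of 2) was 1265 to 1336 against 1392 to 1477. The leukocyte sum (5 names, 4 on the array, 3 detected) was 89.2 to 102.8 against 105.9 to 144.0. These 3 sums did not overlap on this scaling and did with the percentile over all probes. Under that percentile the median difference of the leukocyte markers stayed below 0, at -0.19. Those of the endothelial and smooth muscle markers were 0.066 and 0.15, and that of all 233 was 0.17. Among single miRNAs on the scaling used here, every HHR array lay below every NHR array for 26 of 233.

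The fibroblast sum (5 of 5 detected) was 3623 to 4018 in HHR and 3668 to 4153 in NHR. Its members differed in direction: rno-miR-199a-5p was called higher in HHR (limma), at 0.20, and rno-miR-21 lower, at -0.13. rno-miR-199a-3p (0.12) and rno-miR-214 (0.16) were not called. Over all 233, 9.01% were called higher and 45.5% lower on this scaling. With the percentile over all probes this sum was 3875 to 4519 in HHR and 3220 to 3810 in NHR, without overlap. All 5 members were then called higher (limma), as were 134 of all 233 tested miRNAs. The median difference under that percentile was 0.40 over the 5 members and 0.17 over the 233. The erythroid sum (3 names, 2 on the array, both detected) was 199 to 307 in HHR and 209 to 332 in NHR. The skeletal muscle marker rno-miR-206 was detected on 2 HHR and 2 NHR arrays. The liver marker rno-miR-122, all 6 epithelial markers and both neural markers were detected on no array. The part of the cell type shifts in the miR-378 difference was not tested.

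The size of the strain difference depended on how the levels were computed, while its sign was the same in every setting tried. Some of these settings, such as the filter and the floor, could not change the difference. For rno-miR-378 it was 0.41 as reported and ran from 0.38 to 0.75 over the 22 alternatives, and for rno-miR-378* it was 0.37 and ran from 0.10 to 0.71. The largest values came with scalings that lifted the median of all tested miRNAs as well, to 0.23 with no scaling. Relative to that median rno-miR-378 stood at 0.52 as reported, between 0.44 and 0.59 over 12 other ways of computing levels, and rno-miR-378* at 0.48, between 0.28 and 0.48. The strains overlapped for rno-miR-378* with a model-based background and an offset of 50 and with spike-in scaling, by 0.12 and 0.026, and for rno-miR-378 under none of the 12. In the authors' value table rno-miR-378 averaged 9.58 ± 0.10 for HHR and 8.93 ± 0.27 for NHR (mean ± SD of 8 arrays), a difference of 0.65, and rno-miR-378* 7.31 ± 0.072 and 6.97 ± 0.12, a difference of 0.34. There the 3 brighter NHR arrays lay nearer to HHR, 0.33 below for rno-miR-378 against 0.84 for the 5 dimmer arrays.

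**Figure D5:**
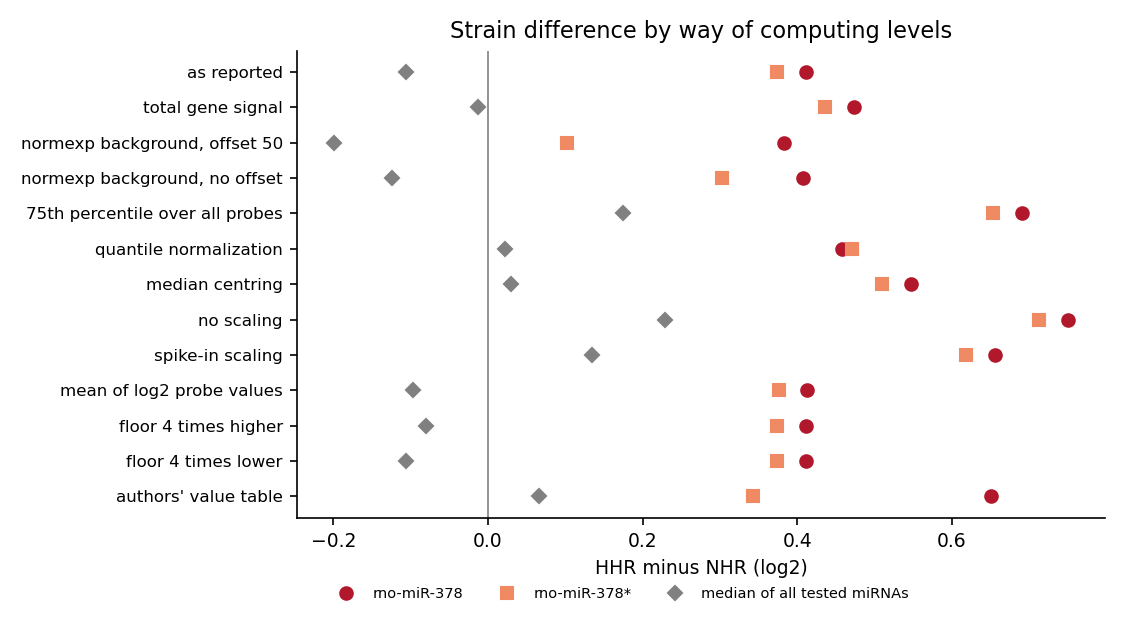
Strain difference (HHR minus NHR, log2) of rno-miR-378 (red circles), rno-miR-378* (orange squares) and the median of all tested miRNAs (grey diamonds) under 13 ways of computing levels. Both arms stay right of 0 in every row, from 0.10 to 0.75, while the median ranges from -0.20 to 0.23.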

How the data were processed

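Arrays were single-colour Agilent rat miRNA arrays, 1 per animal, from 16 hearts grouped by strain and sex from the labels. The members and all lists were chosen with earlier results of these data known. Per the file headers, spot intensity was read with Agilent Feature Extraction 10.7.3.1 (rn4 design build), background-subtracted and spatially detrended with no scaling between arrays; the detection, outlier and background flags are other values of that software, as deposited. A log2 value table that the authors deposited was an alternative. The submitters' processing notes name limma for it; how its background, scale and centre were set is not stated there. Set against the scanner's median signal on a log2 scale, each column gave r = 0.999, and column medians were 6.13 to 6.15.

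Outlier and control spots were dropped, the spots of each probe averaged, arrays scaled as described, probes of a miRNA averaged linearly, a floor of 1.88 set and log2 taken. Group means were fitted over the 16 arrays with limma 3.58.1 (R 4.3.3), with Benjamini-Hochberg adjustment over 233 miRNAs and a threshold of 0.05; scripts were tested on simulated data. Named miRNAs were both members, the 5 most like each arm, and from each list those called, up to 4 by size, else the 2 of smallest p. Alternatives covered background, signal column, scaling, probe averaging, filter, floor, variance settings, slide, replicate number, brightness and leaving out each array. The number of arrays limits the precision. Probe sequences were not used here.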

Additional observations from a re-analysis of the deposited data

Results flagged for a closer look

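Groups of 4 arrays were screened for an arm, a probe or the arm ratio, 28 combinations in all. A single value stood apart from its group by Dixon's criterion, which chance meets in about 1 in 20 groups. Array brightness was not screened. Before scaling, NHR female 3 was at 503 and the other NHR females at 320 to 327. Probe A_26_P00001733 of rno-miR-378 read 9.26 on NHR male 1 and at most 9.22 on the other NHR males, a gap of 0.930 of the group's range. That group had the smallest spread among the log2 values examined, an SD of 0.023 for this probe, and the value lay below every HHR array.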

How the results depend on the processing

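Both arms stayed higher in HHR under all 22 alternatives and all 16 runs that left out an array (0.397 to 0.428 for rno-miR-378, 0.356 to 0.394 for rno-miR-378*). The strains did not overlap for either arm, so leaving out an array could not turn the sign. Settings such as the floor, the filter and the slide or replicate block could not move the difference, which stayed at 0.411 and 0.374. The size moved by more than the replicate spread with the percentile over all probes (0.691 and 0.654), median centring (0.547 and 0.510), no scaling (0.7505 and 0.713) and spike-in scaling (0.656 and 0.618), for rno-miR-378 in the authors' value table (0.651), and for rno-miR-378* with quantile normalization (0.471) and normexp background with an offset of 50 (0.102). The strain difference in arm ratio was 0.280 with normexp and that offset, 0.105 with normexp and no offset, 0.308 in the authors' value table and -0.0137 with quantile normalization, and 0.0260 to 0.0531 with an array left out.

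The count of miRNAs called higher in HHR, 21, became 34 with the total gene signal, 2 and 9 with normexp background with and without the offset, 134 with the percentile over all probes, 57 with quantile normalization, 54 with median centring, 38 with no scaling, 13 in the authors' value table, 7 and 12 on slides 1 and 2 alone, and 10 on arrays above 400. The share of calls that were lower, 83.5%, became 51.4% with the total gene signal, 98.8% with normexp and the offset, 13.5% with the percentile over all probes, 40.0% with quantile normalization and with spike-in scaling, 37.9% with median centring, 20.8% with no scaling and 13.3% in the authors' value table.

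The sex difference in arm ratio was 0.0462 with an exact permutation p of 0.0355 with the slide as a block, -0.0106 with quantile normalization, and 0.0303 to 0.0556 with an array left out. rno-miR-378 differed between sexes by -0.0688 with spike-in scaling, and rno-miR-378* by 0.0454 with the percentile over all probes, 0.0449 with quantile normalization and 0.0051 with median centring. The interaction of rno-miR-378 turned to -0.0555 with the percentile over all probes, -0.0482 with quantile normalization, -0.0348 with median centring, -0.154 with no scaling, -0.0800 with spike-in scaling, -0.108 in the authors' value table, -0.0726 on slide 2 and -0.0461 on arrays above 400, and ran from -0.0111 to 0.0512 with an array left out. Without NHR female 1 it was -0.0111 and without HHR female 2 -0.00664. That of rno-miR-378* turned to 0.0156 with normexp and the offset and 0.0512 on slide 1. No sex or interaction difference of an arm passed the limma threshold under any of these. limma called 3 miRNAs for sex when only those detected on all 16 arrays were tested, and 0 to 10 with an array left out: 10 without NHR male 1, 3 without HHR male 3, 2 without HHR male 4 and 1 without NHR female 1 or NHR male 4.

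The correlation of the arms in HHR passed the threshold with the total gene signal (0.842), the percentile over all probes (0.941), quantile normalization (0.876), median centring (0.863), no scaling (0.931), spike-in scaling (0.955) and the authors' value table (0.881); in NHR it did so with the percentile over all probes (0.831), no scaling (0.985), spike-in scaling (0.986) and the authors' value table (0.972). The cause was not tested for any of these shifts.

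Same-numbered arrays of different groups correlated at -0.217 to 0.526 over 24 pairs, with a median of 0.242 and 16 above 0.1. Differently numbered arrays had a median of -0.132, and of 0.224 where they shared a slide. Numbers 1 and 2 were on slide 1 and numbers 3 and 4 on slide 2. The same-slide median was close to that of same-numbered arrays, so the numbers were not taken to pair animals. With the replicate block limma called 1 miRNA for sex, and the arm ratio's sex difference had an exact permutation p of 0.0859. An exact test of the arm ratio with array brightness as a covariate was not run.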
